A study of Rattus norvegicus with 18 samples.

Results

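The 9 genes described here are expressed in the rodent brain mainly by microglia, the resident macrophages of nervous tissue. They are Csf1r, P2ry12, Itgam, Trem2, Tyrobp, Tmem119, Aif1, C1qa and C1qb, and their RNA was measured in hypothalami of male Wistar rats. They were chosen by name, as microglial identity and complement genes, and every array probe whose transcript accession matched 1 of them was kept. This gave 11 probes for 9 genes, with 2 probes each for Aif1 and Itgam, of 13049 named genes and 31289 probes tested. All 11 probes were well above background on all 18 arrays, so each member passed the filter on dim probes in every group and not through 1 group alone.

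Hypothalamic RNA of 18 rats was hybridised to arrays of 1 colour, 1 array per rat, and the labels give an age of 9 weeks. Control rats (n = 6) were neither restrained nor given a wheel. Stress rats (n = 6) were restrained for 1 to 1.5 h on 5 days a week over 3 weeks, without a wheel. The third group, stress with exercise (n = 6), had the same restraint and free access to a wheel for 4 weeks, from 1 week before the restraint began. No group had the wheel without restraint, all rats were killed with ether and decapitation, and RNA integrity numbers lay above 7. The comparisons are those of restraint with no restraint, of the wheel with no wheel under restraint, and of both together with neither.

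The arrays lay on 5 slides scanned on 2 days. All control arrays and stress arrays 1 to 4 were on slides 1 to 3, and stress arrays 5 and 6 were on slides 4 and 5 together with the whole exercise group. These sets of slides, a grouping made here and not given by the labels or file headers, are called slide sets below. Most of the stress group lay in 1 slide set and all of the exercise group in the other. Each difference of a member that passed by its brightest probe is therefore given beside its value with slide set in the fit. In that fit stress with exercise is set against stress arrays 5 and 6 alone. Control is set against stress arrays 1 to 4 alone, so fewer arrays bear on each difference. With slide set as a covariate, 5 probes of all tested passed the threshold for stress with exercise against stress, and 7 for stress with exercise against control. Of hypothalamic marker genes, 15 of 16 were well above background on all 18 arrays.

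Microglia sense their surroundings through surface receptors and depend for survival on the receptor encoded by Csf1r, which binds the cytokines Csf1 and Il34. P2ry12 is the purine receptor that draws microglial processes toward released nucleotides. Itgam is the alpha chain of complement receptor 3 (CD11b), and Trem2 is a lipid-sensing receptor that signals through the adaptor Tyrobp (DAP12). Tmem119 is a membrane protein used to tell microglia from blood-derived macrophages, and Aif1 encodes IBA1, the calcium-binding protein of the standard microglial stain. C1qa and C1qb encode chains of C1q, the recognition molecule of the classical complement pathway, which takes part in tagging synapses for removal. In a bulk sample, fewer cells of a type and less RNA per cell cannot be told apart.

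Promoter sequence was at hand for 5 of the 9 members (C1qa, C1qb, Csf1r, Itgam and Trem2) in the RefSeq promoter table of build GRCr8, which runs from 250 bases before to 50 bases after the gene start. C1qa and C1qb are shown because they varied together most closely among all pairs of members, and C1qc lies between them in the gene order of that assembly. Trem2 is shown as the receptor with the smallest p-value in the comparison of stress with control. Each sequence is given 5′ to 3′ on the minus strand, which these genes use. Capitals mark GAGGAA or its complement TTCCTC, the core of the box bound by the macrophage factor PU.1, and TGANTCA, the AP-1 site; lower case marks the rest.
C1qa, chr5:154419884-154420183: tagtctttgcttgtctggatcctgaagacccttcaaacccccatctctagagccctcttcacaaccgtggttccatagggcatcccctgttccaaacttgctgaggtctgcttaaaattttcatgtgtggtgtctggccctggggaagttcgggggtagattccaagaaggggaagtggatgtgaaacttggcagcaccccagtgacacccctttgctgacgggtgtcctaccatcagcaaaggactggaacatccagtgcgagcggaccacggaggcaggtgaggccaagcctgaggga
C1qb, chr5:154407778-154408077: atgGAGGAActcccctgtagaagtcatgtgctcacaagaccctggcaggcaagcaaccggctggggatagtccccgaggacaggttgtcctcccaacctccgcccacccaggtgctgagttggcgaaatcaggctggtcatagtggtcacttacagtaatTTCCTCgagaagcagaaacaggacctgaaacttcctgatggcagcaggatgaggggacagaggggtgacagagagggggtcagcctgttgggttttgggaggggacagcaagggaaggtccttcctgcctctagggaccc
Trem2, chr9:20151730-20152029: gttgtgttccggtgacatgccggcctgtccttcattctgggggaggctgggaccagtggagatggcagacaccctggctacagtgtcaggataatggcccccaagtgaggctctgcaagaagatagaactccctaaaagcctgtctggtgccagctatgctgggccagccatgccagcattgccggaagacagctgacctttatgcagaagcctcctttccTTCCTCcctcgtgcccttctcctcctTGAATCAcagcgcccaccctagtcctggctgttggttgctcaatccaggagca
GAGGAA, on either strand, was present in 4 of the 5 members' promoters and absent from the C1qa window. It was present in 27.6% of 33469 rat promoters of the same length. C1qb held it at 2 places, starting at positions −247 and −90 relative to the gene start, and Trem2 held it once, at −29. TGANTCA was found in 1 of the 5, in Trem2, and in 7.33% of all promoters. In Trem2 the matches of the 2 motifs did not overlap. These matches describe the letters only, and binding was not measured.

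Levels are log2 intensities relative to the 75th percentile of the array's own spots, so that 0 is that percentile, and a level of 1 probe cannot be set against that of another. The level of Csf1r ran from −2.84 to −2.48 with a median of −2.77 in control rats. In stress rats it ran from −2.94 to −2.58 with a median of −2.69, and in stress with exercise from −2.88 to −2.33 with a median of −2.75. The 3 groups overlapped almost fully. Csf1r had the widest spread within groups of the 9 representative probes, with a standard deviation of 0.17. Exercise arrays 1 and 2, which shared slide 4, read −2.33 and −2.48, and the exercise arrays of slide 5 lay between −2.88 and −2.67.

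P2ry12 had levels from −1.15 to −0.94 in control rats (median −1.06) and from −1.24 to −0.88 in stress rats (median −1.05). In stress with exercise it ran from −0.99 to −0.84 (median −0.94), and all 6 arrays lay above the mean of either other group, although the ranges overlapped. Its standard deviation was 0.12 in stress rats and 0.05 in stress with exercise.

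Itgam, by its brighter probe, had levels from −2.42 to −1.93 in control rats (median −2.20). It ran from −2.55 to −2.09 in stress rats (median −2.24) and from −2.76 to −2.45 in stress with exercise (median −2.57). The exercise group lay wholly below the control group. The stress group was split by slide set, with a mean of −2.19 over the 4 arrays of slide 3 and of −2.55 over the 2 arrays of slide 4. The slide 3 mean was close to that of the control group (−2.18) and the slide 4 mean to that of the exercise group (−2.58). The dimmer Itgam probe, of another transcript accession, read an intensity of only 48.6 to 76.6 against 302 to 544 for the brighter one, and its group means were −5.06, −5.05 and −5.15.

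Trem2 had levels from −1.06 to −0.91 in control rats (median −0.998), from −1.25 to −1.05 in stress rats (median −1.09) and from −1.16 to −0.96 in stress with exercise (median −1.06). All 6 stress arrays lay below the control mean, and the ranges overlapped at their edges. Tyrobp, its adaptor, ran from −0.06 to 0.09 in control rats (median 0.00044), from −0.13 to 0.16 in stress rats (median 0.03) and from 0.05 to 0.25 in stress with exercise (median 0.08). All 6 exercise arrays lay above both other means, with overlapping ranges.

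Tmem119 had levels from −2.76 to −2.54 in control rats (median −2.65) and from −2.72 to −2.51 in stress rats (median −2.63). In stress with exercise it ran from −2.49 to −2.22 (median −2.41), above every array of both other groups. Its stress mean was −2.64 on slide 3 and −2.60 on slide 4, so the stress group was not split by slide set here. The exercise group was itself graded by slide: arrays 1 and 2, on slide 4, read −2.23 and −2.22, and the 4 arrays of slide 5 lay from −2.49 to −2.41. On slide 4, where both groups were present, the 2 stress arrays read −2.51 and −2.69.

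Aif1, by its brighter probe, ran from 0.66 to 0.78 in control rats (median 0.68), from 0.58 to 0.82 in stress rats (median 0.70) and from 0.71 to 0.90 in stress with exercise (median 0.79). The 2 stress arrays of slide 4 had a mean of 0.80, like the exercise group at 0.79, and the 4 of slide 3 had a mean of 0.65. C1qa ran from 0.58 to 0.80 in control rats (median 0.67), from 0.51 to 0.78 in stress rats (median 0.65) and from 0.67 to 0.85 in stress with exercise (median 0.72). C1qb ran from 1.68 to 1.81 in control rats (median 1.77), from 1.61 to 1.98 in stress rats (median 1.80) and from 1.76 to 1.91 in stress with exercise (median 1.85). For both C1q chains the widest range was in the stress group, where array 2 was the highest and array 3 the lowest for C1qb.

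**Figure D1:**
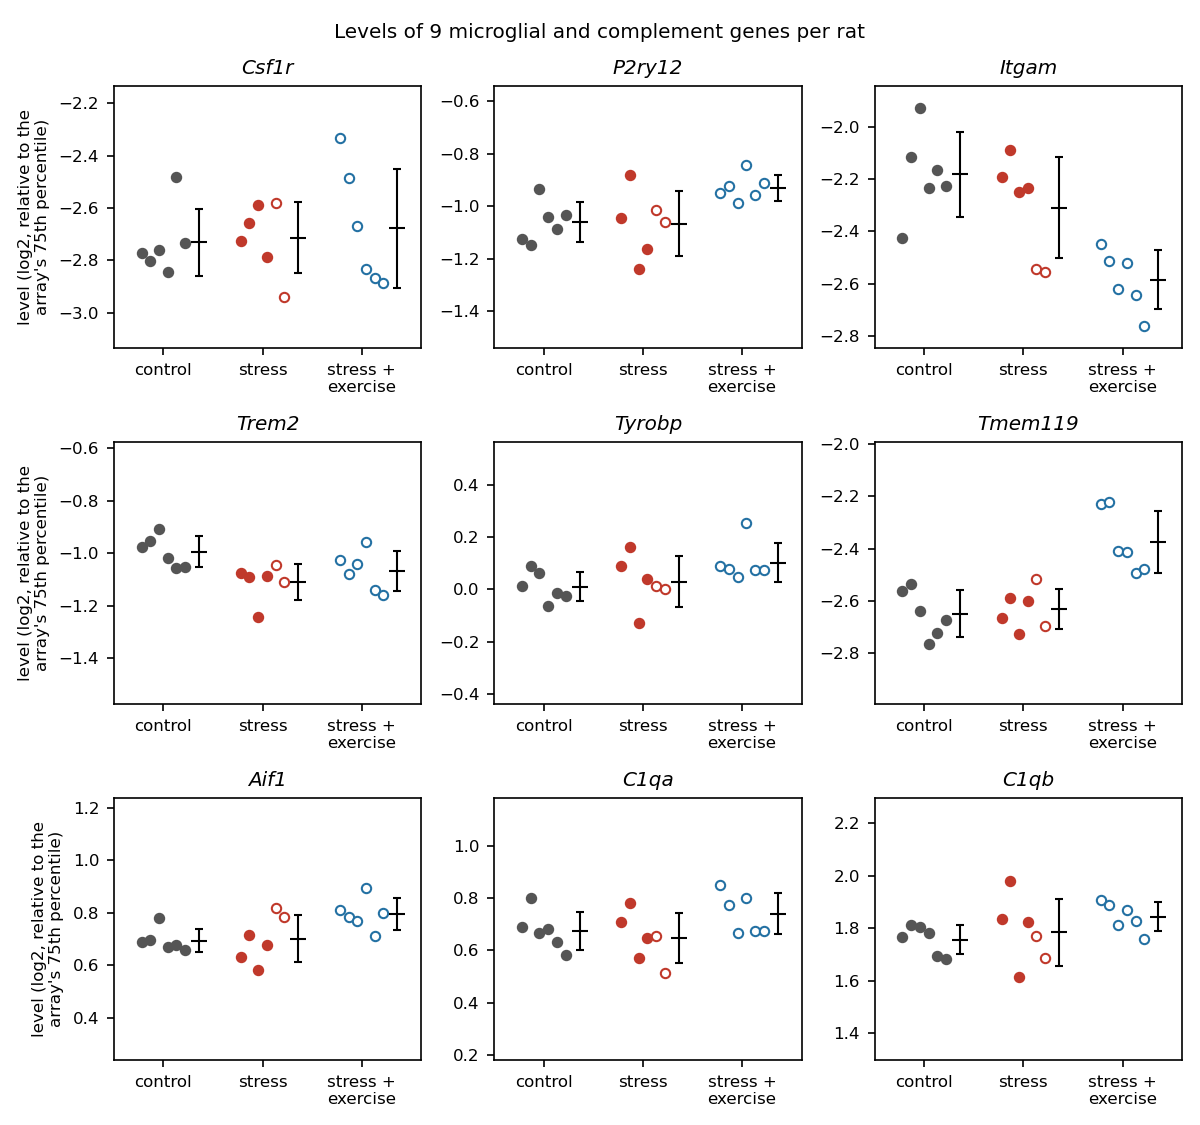
Levels of the 9 genes in each of 18 rats (points; log2 relative to the array's 75th percentile), by group, with the mean and standard deviation of 6 rats beside each group; filled points are slides 1 to 3, open points slides 4 and 5, and every panel spans the same height of 1 log2 unit. Tmem119 in stress with exercise lies above both other groups, and the 2 open stress points of Itgam, with a mean of −2.55, lie with the exercise group.

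The probes of C1qa, C1qb, Trem2 and Tyrobp were printed at 10 spots per array. Their spots differed within an array by a standard deviation of 0.058 to 0.061, which gives an error of the mean of 0.018 to 0.019. The standard deviation between rats within groups was 0.069 for Trem2, 0.079 for Tyrobp, 0.083 for C1qa and 0.086 for C1qb. The spread between rats was thus several times the error from spot to spot for these 4 genes. With 1 array per rat, that spread also holds differences between arrays and slides, which were not measured apart. Aif1 had 2 spots for its brighter probe, with an error of the mean of 0.039 beside a standard deviation within groups of 0.068. The remaining probes had 1 spot, so their reading error was not measured.

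Between stress and control rats, none of the 9 genes passed the threshold, an adjusted p under 0.05 in limma with Benjamini-Hochberg adjustment over all tested probes. The background in this comparison was 0 of 31289 probes, or 0%, although 3682 probes had an unadjusted p under 0.05. No member had groups without overlap, where 0.348% of probes were higher and 0.444% lower without overlap. The largest change in relation to its error was that of Trem2, at −0.12 on the log2 scale (SE 0.04, adjusted p = 0.365), or −7.70% in level with a 95% interval from −13.4% to −1.63%. Of the 9 members, Trem2 alone had an unadjusted p under 0.05 in that limma fit. With slide set as a covariate its difference was −0.13. For C1qb the difference was 0.03 and its interval ran from −0.08 to 0.14, and for C1qa they were −0.03 and −0.13 to 0.08. Tmem119 (0.02, interval −0.10 to 0.14), Tyrobp (0.02, −0.08 to 0.12), P2ry12 (−0.01, −0.12 to 0.11) and Aif1 (0.01, −0.08 to 0.10) had intervals of similar width around 0. The intervals were wider for Csf1r, from −0.18 to 0.22, and for Itgam, from −0.32 to 0.06. The median difference of the 9 genes was 0.01, beside 0.00 over all 13049 genes.

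Between stress with exercise and stress, 1 of the 9 genes passed, Tmem119, which was higher. Its level was 19.4% higher in stress with exercise than in stress, with a 95% interval from 9.79% to 29.9% (0.26 on the log2 scale, SE 0.06, adjusted p = 0.0392 in limma), and 6 of 6 arrays were higher than the stress mean. In this comparison 3.72% of all tested probes passed the threshold, 1.16% as higher and 2.56% as lower. Groups that did not overlap were found for 0.754% of probes with the exercise group higher and for 0.725% with it lower. The adjusted p lay close to the threshold: it was 0.083 without scaling, 0.075 without the filter on dim probes and 0.134 with the 2 groups alone, at 0.20, 0.26 and 0.26 on the log2 scale. The call was also lost when any 1 array was left out other than control array 2, stress array 5 or stress array 6. With slide set as a covariate, which sets the 6 exercise arrays against stress arrays 5 and 6 alone, the difference was 0.23 (adjusted p = 0.63). On slide 4 alone, 2 arrays against 2, it was 0.38 (adjusted p = 0.479). Blocking on scan day, it was 0.26 (adjusted p = 0.016), where 9.88% of all tested probes passed. Within scan day 1 it was 0.38 (adjusted p = 0.345) and within scan day 2 it was 0.20 (adjusted p = 0.013), where 24.2% of all tested probes passed.

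The other 8 genes did not pass in that comparison. Itgam differed by −0.27 on the log2 scale (adjusted p = 0.0814), and by −0.04 with slide set as a covariate (adjusted p = 0.989). P2ry12 differed by 0.14 (adjusted p = 0.128; 6 of 6 arrays above the stress mean), and by 0.11 with slide set. Aif1 differed by 0.09 (adjusted p = 0.197) and by −0.01 with slide set. C1qa differed by 0.09 (interval −0.01 to 0.20), C1qb by 0.06 (−0.05 to 0.17), Tyrobp by 0.07 (−0.03 to 0.17), Trem2 by 0.04 (−0.05 to 0.13) and Csf1r by 0.04 (−0.17 to 0.24). The median difference was 0.07 over the 9 genes and 0.03 over all genes. Without stress arrays 5 and 6, which lay on slide 4, 3 of the 9 genes passed, where 24.9% of all tested probes did: Tmem119 at 0.27 (adjusted p = 0.0059), Itgam at −0.39 (adjusted p = 0.0022) and Aif1 at 0.14 (adjusted p = 0.0175).

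Stress with exercise against control gave 2 calls among the 9 genes, 1 in each direction, where 25.9% of all tested probes passed (10.9% higher and 15% lower). Tmem119 was 21.0% higher, with a 95% interval from 11.2% to 31.6% (0.27 on the log2 scale, SE 0.06, adjusted p = 0.0026 in limma), and 6 of 6 arrays were above every control array. Itgam was lower by its brighter probe, at −24.3% with an interval from −33.6% to −13.7% (−0.40, SE 0.09, adjusted p = 0.0040), and 6 of 6 arrays were below every control array. A share of 6.34% of probes was higher and 10.7% lower without overlap of these groups, so 2 of 9 is near the background. The dimmer Itgam probe differed by −0.08 (adjusted p = 0.576), so the 2 probes of this gene did not give the same call. Over all arrays the 2 Itgam probes had r = 0.69 on the deviations described below.

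With slide set as a covariate, Itgam differed by −0.04 between stress with exercise and control (adjusted p = 0.953). With slide set and scan day together it differed by 0.15 in the opposite direction (adjusted p = 0.666). Within scan day 1, where stress arrays 5 and 6 were set against control arrays 3 to 6, Itgam differed by −0.41 in stress rats (adjusted p = 0.0368), where 11.9% of all tested probes passed. Tmem119 differed from control by 0.24 with slide set (adjusted p = 0.503), by 0.47 within scan day 1 (adjusted p = 0.0054) and by 0.10 within scan day 2 (adjusted p = 0.236). Within either scan day 18.1% of all tested probes passed between stress with exercise and control, and these 2 groups lay on different slides. No slide set held both control and exercise arrays, so this comparison with slide set rests on the stress group, which lay in both. In it the exercise arrays are set against stress arrays 5 and 6 alone, and control against stress arrays 1 to 4 alone. For Itgam, slide set and group cannot be told apart beyond these values.

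The other 7 of the 9 genes did not pass against control. P2ry12 differed by 0.13 (adjusted p = 0.0791), and Aif1 by 0.10 for the brighter probe (adjusted p = 0.0986). The other Aif1 probe differed by 0.11 and passed (adjusted p = 0.0341), with 6 of 6 exercise arrays above the control mean. With group alone the 2 probes thus agreed in size and lay on either side of the threshold. With slide set as a covariate the brighter Aif1 probe differed by −0.05, the opposite sign (adjusted p = 0.868 in limma). The intervals were −0.01 to 0.19 for Tyrobp, −0.02 to 0.20 for C1qb, −0.04 to 0.17 for C1qa, −0.16 to 0.02 for Trem2 and −0.15 to 0.26 for Csf1r. The 2 last comparisons share the exercise arrays, and the first and last the control arrays, so their calls are not independent.

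**Figure D2:**
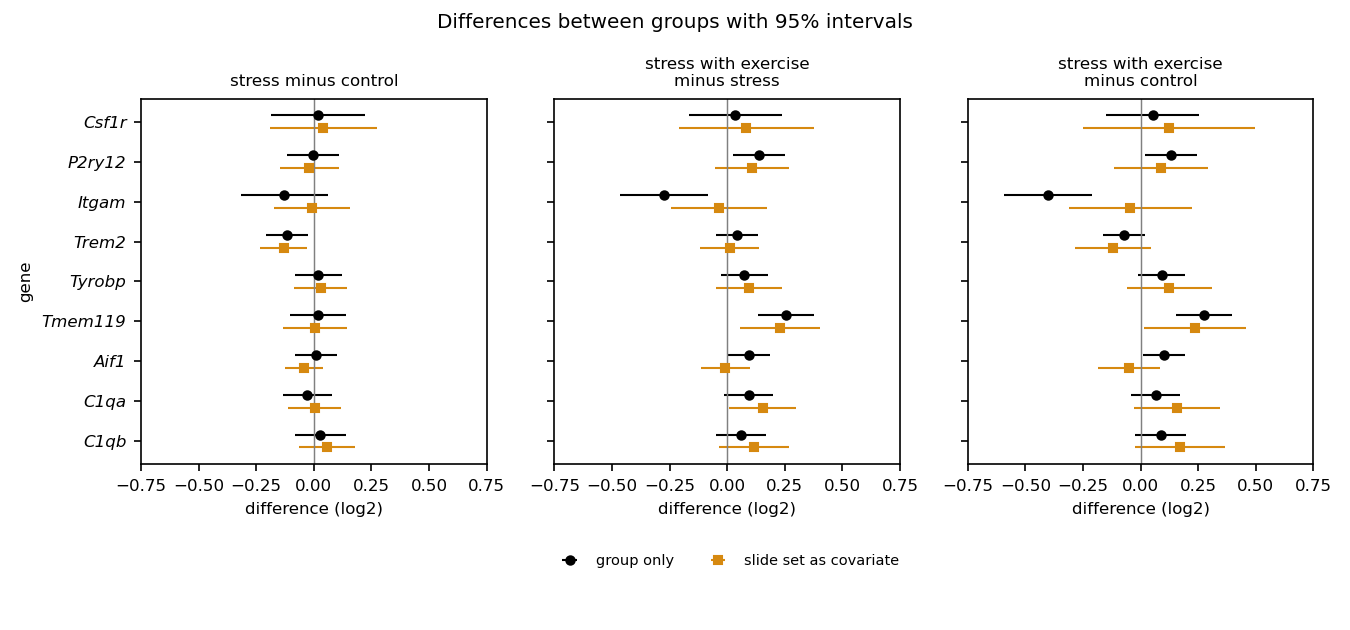
Differences between groups for the 9 genes (log2; points with 95% intervals of the limma fit over 18 arrays), with group as the only term (circles) and with slide set as a covariate (squares). The difference of Itgam between stress with exercise and control is −0.40 with group alone and −0.04 with slide set, while that of Tmem119 is 0.27 and 0.24 with a wider interval.

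On scaled levels, most of the 9 genes varied together from array to array. This was measured as Pearson's r over 18 arrays on each gene's deviations from the mean of its group and slide set. Thus neither the groups nor the slide sets add to it, but single slides and scan days were not removed. Exercise arrays 1 and 2, on slide 4, deviated by 0.35 and 0.19 for Csf1r, and those of slide 5 by −0.21 to 0.01. For Tyrobp these values were −0.01 and −0.02, and −0.06 to 0.15. The part of single slides in r was not tested. The median r over the 36 pairs was 0.53, from −0.21 to 0.83, and 33 pairs were above 0. Over all 85131676 pairs of named genes the median was 0.01, and the 5th and 95th percentiles were −0.50 and 0.54. By permutation, 21 of the 36 pairs had a p under 0.05 and 19 after Benjamini-Hochberg adjustment over the 36 pairs, and 20 did so by Spearman's rho. The permutations did not redo the removal of means, so these p-values are a little too small. They also took arrays that share a slide or scan day as independent, and the effect of this on the p-values was not tested. In 28 of the 36 pairs r was above 0 in both slide sets.

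The chains of C1q were the closest pair. C1qa and C1qb had r = 0.83 and rho = 0.89 (permutation p = 2e-05, adjusted p = 0.00072; rho adjusted p = 0.00072), with r = 0.85 within slides 1 to 3 and r = 0.91 within slides 4 and 5. Without the 2 arrays farthest from the median of C1qa, r was 0.86. Trem2 and its adaptor Tyrobp had r = 0.76 and rho = 0.78 (permutation p = 0.00023, adjusted p = 0.0025), and r = 0.69 without the 2 arrays farthest from the median of Trem2. Aif1 had r = 0.79 with Trem2 and r = 0.77 with Tyrobp, and Tyrobp had r = 0.74 with C1qb. These 5 pairs join Aif1, Trem2, Tyrobp, C1qa and C1qb, and each of these 5 genes passed with 5 or 6 of its 8 partners.

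By r, the remaining genes passed with fewer partners. Tmem119 passed with 4 partners, most closely with C1qa at r = 0.72 (permutation p = 0.0011, adjusted p = 0.0055), and had r = 0.05 with P2ry12. Itgam passed with 2 partners by r, Aif1 and Trem2, at 0.54 each, but with 6 by Spearman's rho, the highest being C1qb at rho = 0.78 (adjusted p = 0.0033). For Aif1 and Itgam, r was −0.51 on values as they stand, −0.14 on deviations from group means alone and 0.33 without the 2 arrays farthest from the median of Aif1. P2ry12 passed by r with Aif1, Tyrobp and C1qb, but for the last 2 this rested on a few arrays. By Spearman's rho P2ry12 passed with none of them (adjusted p = 0.150, 0.150 and 0.185 in the same order). Its r with C1qb fell from 0.64 to 0.11 and that with Tyrobp from 0.66 to 0.34 without the 2 arrays farthest from its median. Its r with Aif1 went from 0.65 to 0.52 without the 2 arrays farthest from the median of Aif1 (permutation p = 0.041). Csf1r stood apart from the other members, with a median r of 0.06 with them and 1 pair past the threshold, Tmem119 at r = 0.54. That pair had r = 0.96 within slides 4 and 5 and r = −0.37 within slides 1 to 3, so it did not hold within both slide sets. Against the mean of the other 8 genes, r was 0.84 for C1qb, 0.80 for C1qa, 0.79 for Trem2, 0.74 for Aif1, 0.72 for Tyrobp, 0.62 for Itgam, 0.59 for Tmem119, 0.54 for P2ry12 and 0.16 for Csf1r.

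**Figure D3:**
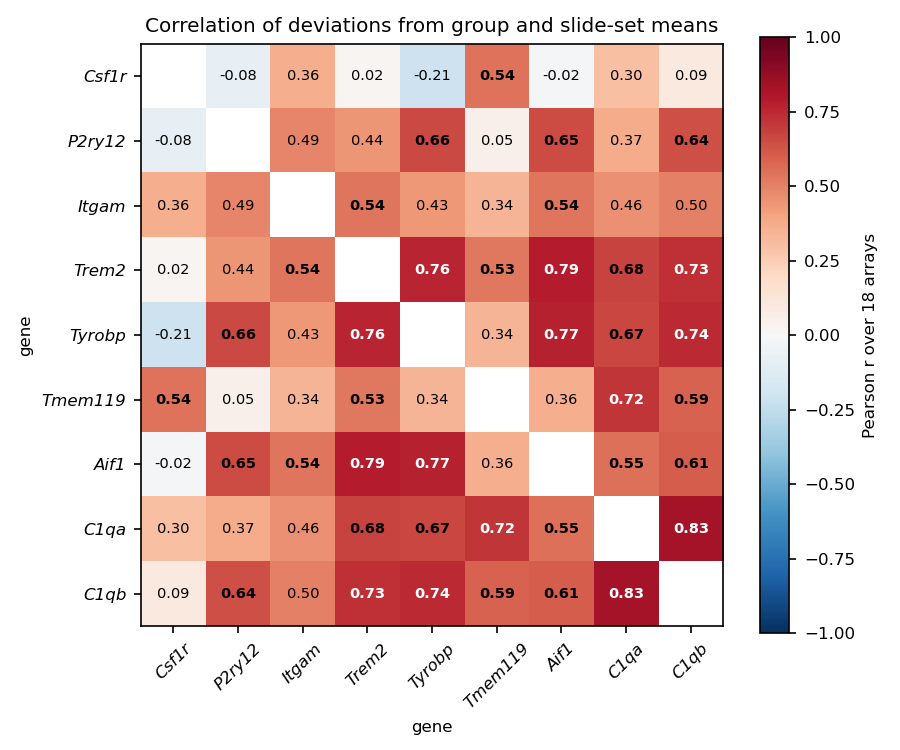
Pearson's r over 18 arrays for each pair of the 9 genes, on deviations from group and slide-set means (colour and number; bold where the permutation p adjusted over 36 pairs is under 0.05). The block from Trem2 to C1qb holds the highest values, up to 0.83, and the Csf1r row is pale.

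On scaled levels the shared variation can be read in single arrays. In stress array 2 all 9 genes lay above the mean of their group and slide set, and in stress array 3, of the same slide, 8 of 9 lay below it. These arrays had 75th percentiles of 1966 and 2422, the lowest of slide 3 and the highest of all 18 arrays. Without scaling, 2 of 9 genes lay above the mean in stress array 2 and 1 of 9 below it in stress array 3, so the contrast of these 2 arrays was one of scaled levels only; with quantile normalization the counts were again 9 and 8. Without scaling the median r over the 36 pairs was 0.60, but that over all pairs of named genes was 0.34 in place of 0.01. The r of C1qa and C1qb was 0.84 without scaling and 0.86 with quantile normalization. As a description over the 18 arrays, the members' mean deviation had r = −0.49 with the log2 of the 75th percentile, treated in the same way, and r = 0.66 when levels were not scaled. The part of scaling in the shared variation was not tested further. In stress with exercise, array 5 had all 9 genes below and array 4 had 7 of 9 above. Stress arrays 5 and 6 mirror each other, since only these 2 make up their group within slides 4 and 5. Without stress arrays 2 and 3, which lay farthest from the median of the members' mean, the median r over the 36 pairs was 0.42. Of the 19 pairs that passed, 15 kept a permutation p under 0.05 without the 2 arrays farthest from the median of 1 gene of the pair. That gene was the first of the pair in a fixed order, and the other gene was not considered.

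**Figure D4:**
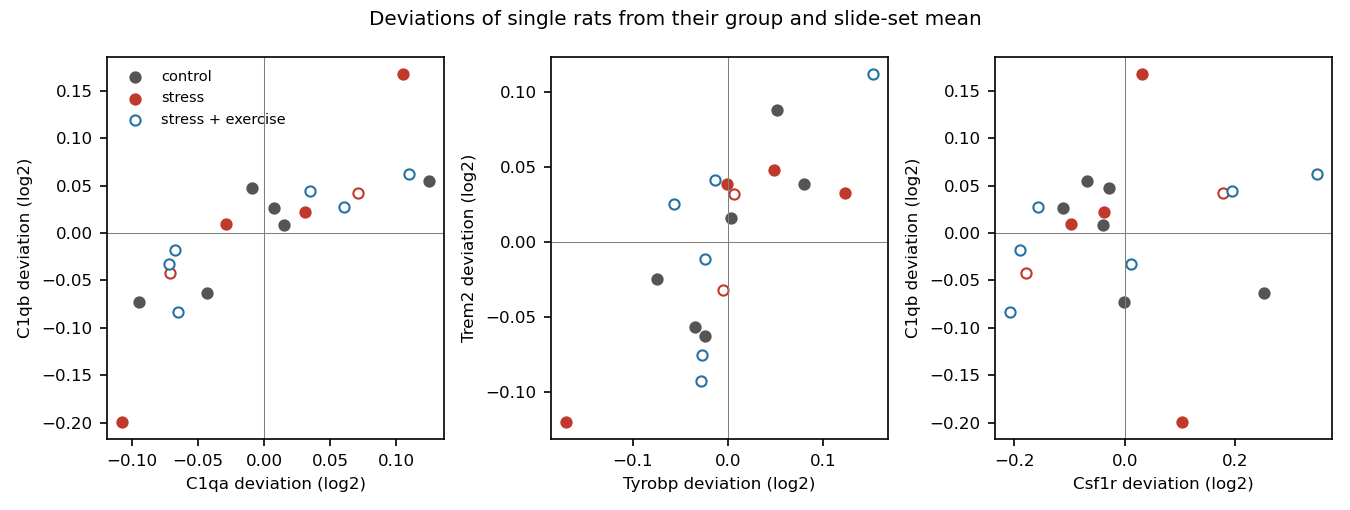
Deviations of 18 rats from the mean of their group and slide set (log2) for C1qa against C1qb (r = 0.83), Tyrobp against Trem2 (r = 0.76) and Csf1r against C1qb (r = 0.09); colours are groups, open points slides 4 and 5. On these scaled levels, stress arrays 2 and 3 are the highest and lowest points on the C1qb axis.

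Other genes were ranked by r with the mean of the 9 genes' standardised deviations, as a description over the same 18 arrays, which share scaling and slides, on scaled levels. Of 13040 named genes beyond the members, the 8 most alike were Ppp1r18 (r = 0.86), Fcer1g (0.83), Sox4 (0.79), Anxa3 (0.77), Clu (0.76), Cry1 (0.76), Sod3 (0.76) and Hfe (0.75). On values as they stand, before group and slide-set means were removed, r was 0.62, 0.86, 0.37, 0.24, 0.61, 0.21, 0.82 and 0.40 in the same order. Fcer1g encodes the Fc receptor gamma chain, a signalling adaptor of the same kind as Tyrobp, and it had r = 0.85 with Trem2 and r = 0.84 with C1qb. Clu, clusterin, is a lipoprotein that astrocytes secrete and that restrains complement, and it had r = 0.85 with C1qa. Cry1 is a clock gene and Sod3 an extracellular antioxidant enzyme.

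Among 55 tested microglial genes beyond the members, the median r with that mean was 0.20 and 9 were above 0.5, or 16.4%. Over all genes the median was −0.06 and 2.02% were above 0.5. Besides Fcer1g, the highest of these 9, named after their values were seen, were Slco2b1, Rgs10 and Cd68 (0.74, 0.74 and 0.71). Cx3cr1, the receptor for neuronal fractalkine, had r = 0.10. The median was 0.15 for 32 genes of the complement cascade and 0.24 for 29 genes of microglial activation. C1qc, the third C1q chain, had r = 0.50, with 0.70 against C1qa and 0.51 against C1qb, and the complement component C3 had r = 0.54. Astrocyte genes, 12 in all, had a median of 0.29 with 3 above 0.5. For 12 neuronal genes it was −0.15, for 12 oligodendrocyte genes −0.0035, for 12 endothelial and mural genes 0.13 and for 16 tested genes of perivascular macrophages and blood leukocytes −0.08, with none above 0.5 in these 4 lists.

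**Figure D5:**
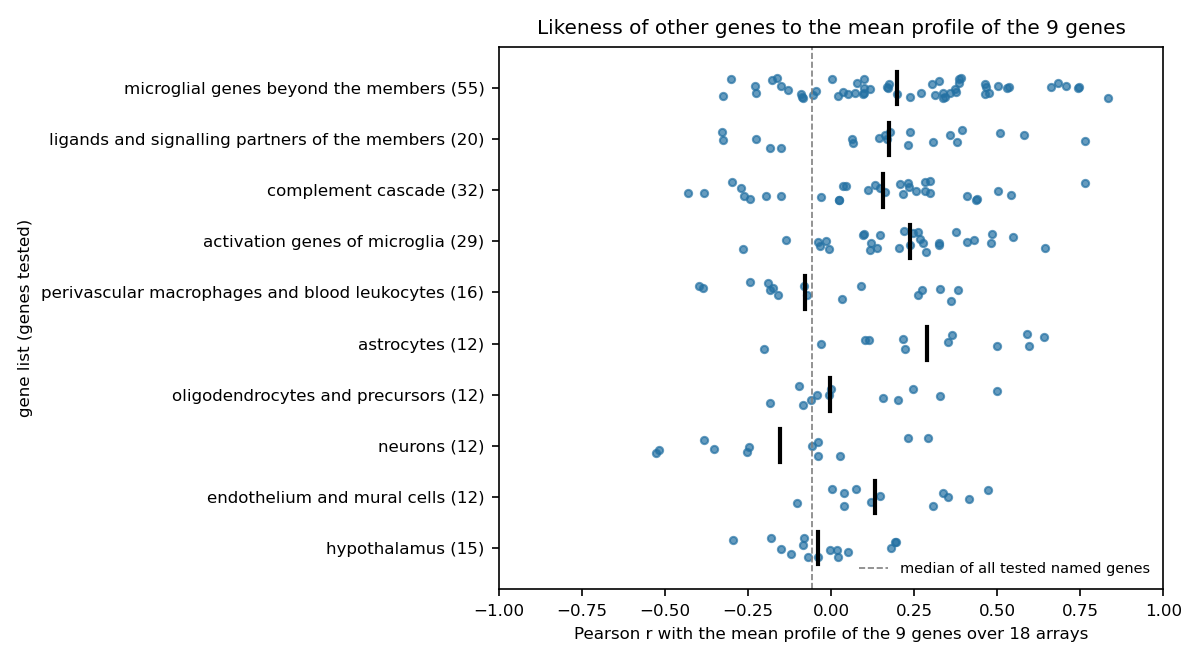
Pearson's r of single genes (points) with the mean profile of the 9 genes over 18 arrays, by gene list, with the median of each list (bar) and of all tested named genes (dashed line, −0.06). The microglial list reaches 0.83, at Fcer1g, with a median of 0.20, and the astrocyte list has a higher median of 0.29. The perivascular and leukocyte list stays below 0.5.

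The 9 genes are shared in part with other macrophages and with leukocytes, so markers of those cells were read beside them. Of 35 listed, 29 were on the array and 9 were well above background on all 18 arrays. Mrc1, the mannose receptor used as a marker of perivascular macrophages, was well above background on none, as were Cd8a and Itgal. Other macrophage genes of the list passed the filter. Clec10a, Cd163 and Lyve1 had r = 0.38, 0.33 and 0.26 with the mean profile of the 9 genes, and Siglec1 and F13a1 had r = −0.16 and −0.18. The log2 of the list's summed level ran from −1.70 to −1.22 in control rats, from −1.45 to −1.18 in stress rats and from −1.73 to −1.33 in stress with exercise. The summed level of the 9 members ran from 3.13 to 3.24, from 3.06 to 3.32 and from 3.20 to 3.33. These sums are over different probes, so only groups within a list can be compared. Of the 16 leukocyte and perivascular genes tested, none passed in the first 2 comparisons. Against control 1 passed, where 25.9% of all tested probes did. This was Cd3d, a chain of the T cell receptor complex, which differed by −0.60 in stress with exercise (adjusted p = 0.00256). Its stress arrays were split as those of Itgam were, with means of −3.47 on slide 3 and −4.15 on slide 4, and with slide set it differed by 0.08, the opposite sign. The part of these cells in the members' levels was not tested.

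Other genes of microglia, each by its brightest probe, passed against control in both directions. None of the 55 passed between stress and control or between stress with exercise and stress, where P2ry6 (0.14, adjusted p = 0.0598) and Cmtm7 (0.20, adjusted p = 0.0611) had the smallest p. Between stress with exercise and control, 6 were higher and 2 lower, or 8 of 55, where 25.9% of all tested probes passed, with a median difference of 0.04 over the 55 beside 0.03 over all genes. The higher ones included Cd14, a co-receptor for bacterial lipopolysaccharide, at 0.34 (adjusted p = 0.0397). Inpp5d, the phosphatase SHIP1 that damps signalling from Tyrobp, was 0.31 higher (adjusted p = 0.00177). Coro1a (0.20), Rnase4 (0.18) and P2ry6 (0.15) also passed, although the second P2ry6 probe was lower, by −0.72 (adjusted p = 0.0011), and passed as lower against stress too (adjusted p = 0.0430). Cx3cr1 was lower, by −0.60 (adjusted p = 0.014) and so was Sall3, by −0.16 (adjusted p = 0.0412). The Cx3cr1 means were −0.47 in control, −0.78 in stress and −1.07 in stress with exercise, and its stress arrays had means of −0.52 on slide 3 and −1.30 on slide 4. With slide set as a covariate it differed by 0.19 in the other direction (adjusted p = 0.838). The differences of Cd14, Inpp5d and Rnase4 were 0.66, 0.21 and 0.22 with slide set, and those of P2ry6, Coro1a and Sall3 came to 0.08, 0.04 and −0.02.

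Of 20 ligands and signalling partners of the members, none passed in the first 2 comparisons and 6 were higher in stress with exercise than in control, where 10.9% of all tested probes were higher. The largest were Card9, a signalling adaptor, at 0.41, Inpp5d, Grb2 at 0.24 and Cd47, the "do not eat me" signal to phagocytes, at 0.24. With slide set in the fit, Card9 differed by −0.02, Grb2 by −0.06 and Cd47 by −0.09, the opposite sign, and Inpp5d by 0.21. The second probes of Grb2 and Cd47 did not pass, at 0.07 and 0.06 (adjusted p = 0.517 and 0.260). Apoe and Clu, lipoproteins that bind Trem2, were among the 6, at 0.14 and 0.22 (adjusted p = 0.0427 and 0.000725), and differed by 0.08 and 0.19 with slide set. Csf1 and Il34, the ligands of Csf1r, did not pass, at 0.06 and 0.10 (adjusted p = 0.0796 for Il34), nor did Cx3cl1, the ligand of Cx3cr1, at 0.16 (adjusted p = 0.178).

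Of 32 complement genes tested, 1 was higher in stress with exercise than in stress, where 1.16% of all tested probes were. This was the ficolin Fcna, which starts the lectin pathway, at 0.51 (SE 0.12, adjusted p = 0.0399). Against control, 4 were higher, where 10.9% of all tested probes were: Fcna at 0.48, Cfd, the protease of the alternative pathway, at 0.37, C2 at 0.24 and Clu at 0.22 (adjusted p = 0.00683, 0.0164, 0.00225 and 0.000725). Fcna was a dim probe, with a control mean of −6.42. With slide set these differences were 0.85, 0.59, 0.33 and 0.19, and that of Fcna against stress was 0.75 (adjusted p = 0.172). By the brightest probe none of the 32 was lower past the threshold, but further probes of Cd55 and C3ar1 were, by −0.81 and −0.48 against control (adjusted p = 0.0167 and 0.0417). C1qc differed by 0.08 against control and by 0.11 against stress (adjusted p = 0.598 and 0.521), and C3 by 0.21 and 0.14 (adjusted p = 0.198 and 0.484). C4bpa, Cr2, Mbl2 and Vsig4 were well above background on no array.

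Of 29 genes of microglial activation tested, none passed in the first 2 comparisons. Against control, 3 of 29 passed, where 25.9% of all tested probes did. B2m, the light chain of class I antigen presentation, was 0.14 higher and the lysosomal protease Ctsb 0.12 higher. Ncf1, a subunit of the phagocyte oxidase, differed by −0.36. The second Ncf1 probe differed by 0.13 (adjusted p = 0.363). The stress arrays of Ncf1 had means of −1.62 on slide 3 and −2.13 on slide 4. Cst7, RT1-Ba, Il6 and Ccl4 were well above background on no array. With slide set, B2m differed by 0.17, Ctsb by 0.04 and Ncf1 by 0.15, the opposite sign for Ncf1. No gene of these 4 lists had an adjusted p under 0.05 against control once slide set was in the fit.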

How the data were processed

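Per the file headers, the deposited intensities are the processed signals of Agilent Feature Extraction 12.1.0.3 (9.1 per the submitters' processing notes), corrected for background and spatial trend before deposit. The authors' matrix held the same intensities times 1 constant per array. Here the log2 of each intensity minus the array's 75th percentile over non-control spots was taken (2422 at most, 1963 at least), without outlier and control spots, and repeated spots of a probe were averaged. The 18 arrays, 1 per rat, limit the precision. Of 45598 probes, 21220 were named through transcript accessions in a gene table of assembly GRCr8, and the brightest tested probe stands for a gene.

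Tested probes (31289) were well above background on at least 5 of 6 arrays of 1 group. The comparisons used limma 3.58.1 in R 4.3.3 over the 18 arrays, fitting group alone, with Benjamini-Hochberg adjustment over all tested probes, two-sided, after a run on simulated data. Correlations used 100000 permutations. The plan named the percentile over probes, which was run as an added alternative, and normexp on mean signals, for which median signals stood in. The members, gene lists and tests were chosen with earlier results of these data known.

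Named were all members, up to 4 passing genes per list, direction and comparison (or the 2 with the smallest p), the 8 genes most like the members' mean, and C1qc, Cx3cr1, Csf1, Il34, Cx3cl1 and C3. Slides and scan days come from the file headers. Slide 1 held control arrays 1 and 2, slide 2 control arrays 3 to 6, slide 3 stress arrays 1 to 4, slide 4 stress arrays 5 and 6 with exercise arrays 1 and 2, and slide 5 exercise arrays 3 to 6; slides 2 and 4 were scanned on day 1. The labels disagree on the amount of RNA per array. Not every gene under this rule is reported here.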

Additional observations from a re-analysis of the deposited data

Results flagged for a closer look

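In each group of 6 arrays and for each of the 11 probes, the highest or lowest array was compared with its neighbours by Dixon's ratio at the 95% level. Of 33 groups tested, 4 had an array that stood apart, and chance flags about 1 in 20. The Aif1 level of control array 3 was 0.78, where the other controls lay from 0.66 to 0.70. The Csf1r level of control array 5 was −2.48, where the others lay from −2.84 to −2.73. The Trem2 level of stress array 3 was −1.25, where the others lay from −1.11 to −1.05. Before scaling, its intensity of 1022 lay within the 922 to 1034 of the other stress arrays, and its 75th percentile of 2422 was the highest of all 18 arrays. On scaled levels this array also had 8 of the 9 genes below the mean of its group and slide set. The Tyrobp level of exercise array 4 was 0.25, where the others lay from 0.05 to 0.09. No cause was tested.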

How the results depend on the processing

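Between stress and control, the count of 0 of 9 genes became 1 (Itgam) within scan day 1, where 11.9% of all probes passed, and was 0 under every other setting run. Between stress with exercise and stress, the count of 1 became 0 without scaling, without the filter on dim probes, with slide as a random block, with slide set or slide set and scan day as covariates, within slides 4 and 5, within scan day 1, within slide 4 and with the 2 groups alone. It became 2 within scan day 2 and 3 without stress arrays 5 and 6, where 24.2% and 24.9% of all probes passed in place of 3.72%. Leaving out 1 array gave 0 to 2: the call on Tmem119 was lost without any single array other than control array 2, stress array 5 and stress array 6, and without either of the last 2 Itgam passed as well. Against control, the count of 2 became 0 with slide set, or slide set and scan day, as covariates, and 1 with slide as a random block or within scan day 2. Itgam against control was 0.15 with slide set and scan day, the opposite sign; the cause was not tested. The settings by slide set together with scan day, by single scan day, within slide 4, without stress arrays 5 and 6 and with the percentile over probes were chosen after seeing the data. Of differences past the test at neither setting, 43, 15 and 6 changed sign in the 3 comparisons.

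The replicate numbers did not pair the samples: of 18 same-numbered pairs 4 had r over 0.1 and 0 arrays correlated best with their own number. With the replicate number as a block, 0 members passed between stress with exercise and stress (Tmem119 adjusted p = 0.072), and 2 of all probes in place of 1164.

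The median r of the 36 pairs was 0.38 on values as they stand, 0.43 on deviations from group means only, 0.64 within slides 4 and 5 and 0.42 without stress arrays 2 and 3, and 0.47 to 0.60 leaving out 1 array. Over all probes against control, 3417 were higher and 4698 lower, but 715 and 4413 without scaling and 4914 and 3973 with quantile normalization; between stress with exercise and stress, 362 and 802, but 31 and 1326 without scaling. Dim probes (Fcna, the second Itgam probe) and probes of 1 spot carry a reading error that was not measured.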

Other observations

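Markers of other brain cells were read beside the microglial genes, and none of them passed between stress and control. Of 12 astrocyte genes, Sox9 was lower in stress with exercise than in stress (−0.57, adjusted p = 0.0407 in limma). Sox9 (−0.80), Glul (−0.36) and Gja1 (−0.19) were lower against control. With slide set in the fit these were 0.03, −0.06 and −0.05, and Sox9 against stress was −0.02. Of 3 further Sox9 probes, 1 passed against control (−0.65, adjusted p = 0.0033). The stress arrays of Sox9 had means of −1.15 on slide 3 and −1.97 on slide 4. Of 12 oligodendrocyte genes, 6 were higher against control, the largest being the myelin gene Mag (0.36), Cspg4 (0.26), Mog (0.22) and Cnp (0.22), and 0 were lower by the brightest probe. With slide set these were 0.09, 0.05, 0.03 and 0.08. The second Mag probe did not pass (−0.09, adjusted p = 0.210), and the second Mbp probe was lower (−0.17, adjusted p = 0.0291). Of 12 neuronal genes 4 were higher, Nefl (0.37), Gad2 (0.34), Gad1 (0.17) and Rbfox3 (0.15), which with slide set were 0.06, 0.08, 0.10 and −0.03. Of 12 endothelial and mural genes, Abcc9 was higher against stress (0.33), and against control Rgs5 was higher (0.29) and Acta2 (−0.62) and Vwf (−0.33) were lower by their brightest probes. With slide set, Abcc9 against stress was 0.28, and Rgs5, Acta2 and Vwf were 0.18, 0.40 and 0.17. The second Vwf probe was higher against both control (0.40, adjusted p = 0.00287) and stress (0.35, adjusted p = 0.0407). Of 15 tested hypothalamic genes, Npy was higher (0.32) and Trh (−0.32) and Hdc (−0.25) were lower against control, with 0.45, −0.18 and −0.29 with slide set. With slide set in the fit, none of these genes passed against control.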
